A study of Mus musculus with 21 samples.

Results

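Neuropeptides are short signaling molecules that neurons cut from longer precursor proteins, pack into dense-core vesicles and release beside their fast transmitter. In the cortex, hippocampus, amygdala and striatum each one marks a restricted set of neurons. Sst, Npy and Vip mark classes of GABA interneurons, Cck is made by cortical pyramidal cells as well as by a class of interneurons, and Penk, Tac1 and Pdyn mark the projection neurons of the striatum. The precursor mRNAs described here are Sst (somatostatin), Npy (neuropeptide Y), Vip (vasoactive intestinal peptide), Cck (cholecystokinin), Tac1 (substance P and neurokinin A), Tac2 (neurokinin B), Crh (corticotropin-releasing hormone), Penk (enkephalins), Pdyn (dynorphins) and Adcyap1 (PACAP). They were chosen by name as peptides of cortical and limbic neurons, with earlier results of these data known. They are 10 of the 55401 genes in the count table.

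RNA came from the forebrain of 21 mice in 6 groups, in which both copies of mouse Apoe had been replaced by human APOE2, APOE3 or APOE4. The parental groups E2H, E3H and E4H held 3 mice each and were 9 to 10 months old. The tau groups, named PS/E2H, PS/E3H and likewise PS/E4H, held 4 mice each and carried 1 copy of the PS19 transgene, which encodes human tau with the P301S mutation under the mouse prion protein promoter. The PS19 mice were killed when their hindlimbs became paralyzed, so the transgene, the paralysis, the mixed B6/C3H background of the PS19 line and the age at death cannot be told apart. Each sample held a mixture of forebrain regions, so fewer cells of a type and less mRNA per cell cannot be told apart either.

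Somatostatin and VIP are textbook examples of genes switched on through the cAMP response element, a short motif bound by CREB, and the promoter letters are shown for the peptides that hold it or a close variant. RefSeq promoters (GRCm38.p6, from 250 bases before to 50 bases after the start) existed for 8 of the 10 genes. The full palindrome TGACGTCA was found on either strand in 1 of the 8 and in 1.79% of 32851 mouse promoters. The shorter TGACGTC, which lies inside the palindrome, was found in 3 of the 8 and in 3.21% of all promoters. The variant TGCGTCA was found in 2 of the 8 and in 2.12% of all promoters. The 8 were counted as genes, positive where any of their promoters matched, while the percentages were counted over single promoters. No match to any of these letters lay in the windows of Npy, Tac2 or Pdyn. Matches are a description of the sequence only. The motif is in capitals, each line is 5′ to 3′ on the gene's strand, and the motif began 48 bases before the start in Sst, 79 in Vip, 49 in Cck, 199 in Tac1 and 91 in Adcyap1, counted from the RefSeq start. GENCODE starts Sst further upstream, so the Sst window lies in an annotated exon there, and the Tac1 window also touches one.
Sst, chr16:23890874-23890903, minus strand: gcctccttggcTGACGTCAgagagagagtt
Vip, chr10:5639128-5639156, plus strand: gatcactactgTGACGTCtttcggggagc
Adcyap1, chr17:93198915-93198943, plus strand: gactaggatgcTGACGTCttttactgata
Cck, chr9:121495726-121495754, minus strand: tcctgctggacTGCGTCAgcactgggtaa
Tac1, chr6:7554851-7554879, plus strand: ttccctaaaatTGCGTCAtttcgaacaca
These 5 genes did not share a direction in the pooled tau comparison described further on, where Vip rose, Cck fell and the other 3 did not pass the test.

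The 10 genes are protein coding and lie on 8 chromosomes, with Npy and Tac1 on chromosome 6 and Vip and Tac2 on chromosome 10. In GENCODE coordinates (GRCm38) Vip, ENSMUSG00000019772, spans chr10:5639218-5647617 on the plus strand and Cck, ENSMUSG00000032532, spans chr9:121489824-121495694 on the minus strand. Adcyap1 is at chr17:93199017-93206537, Npy at chr6:49822710-49829507, Tac1 at chr6:7554879-7565834 and Tac2 at chr10:127724478-127731768, each on the plus strand. Sst is at chr16:23889573-23890958, Crh at chr3:19693401-19695396, Pdyn at chr2:129686565-129699844 and Penk at chr4:4133531-4138819, each on the minus strand. Penk is overlapped by A830012C17Rik on the opposite strand. Whether the counting used strand is not given in the sources used here, so reads of that pair could not be told apart.

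The libraries held 59265459 to 75932183 gene counts, with a median of 63751715, and no 2 mice of a group agreed within sampling noise. Xist was at 10.3 FPKM or more with Ddx3y near 0 in 17 mice, and Xist was at most 0.143 FPKM with Ddx3y between 7.38 and 11.96 FPKM in the other 4 (1 E4H, 1 PS/E2H and 2 PS/E4H mice). The labels give no sex. The methods describe the larger number of mice as male and place the females in the groups that hold those 4 mice, which is the opposite of these transcripts. The microglial markers (8 genes) summed to between 87.3 and 116 FPKM in parental mice and between 158 and 315 FPKM in PS19 mice, and the astrocyte markers (6 genes) summed to between 297 and 340 and between 505 and 922 FPKM.

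All 10 precursors were well above the detection limit in all 21 mice, and their levels spanned a wide range. On the length-scaled FPKM values, Sst was at 141 ± 17.6 FPKM (SD, n = 21), Penk at 120 ± 20.1 and Cck at 95.1 ± 19.0. Npy followed at 55.0 ± 7.49 FPKM. Sst exceeded Penk in 18 of 21 mice and Penk exceeded Cck in 18 of 21, while Cck exceeded Npy, and Npy exceeded Tac1, in 21 of 21 mice with ranges that did not overlap.

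The lower part of the order held Tac1 at 15.1 ± 2.90 FPKM, Pdyn at 14.5 ± 1.91 and Vip at 10.5 ± 2.24. Tac1 and Pdyn could not be ordered, since Tac1 was the higher of the pair in 14 of 21 mice. Tac2 was at 5.79 ± 1.46 FPKM and Adcyap1 at 5.27 ± 0.776, also without a clear order (Tac2 higher in 12 of 21 mice). Crh was the lowest at 2.39 ± 0.521 FPKM, with 144 to 336 reads per mouse against 5472 to 9561 for Sst. The spread between mice of a group, as a coefficient of variation averaged over the 6 groups, was smallest for Pdyn (9.55%) and Adcyap1 (11.4%) and largest for Tac2 (23.8%) and Crh (20.4%).

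**Figure D1:**
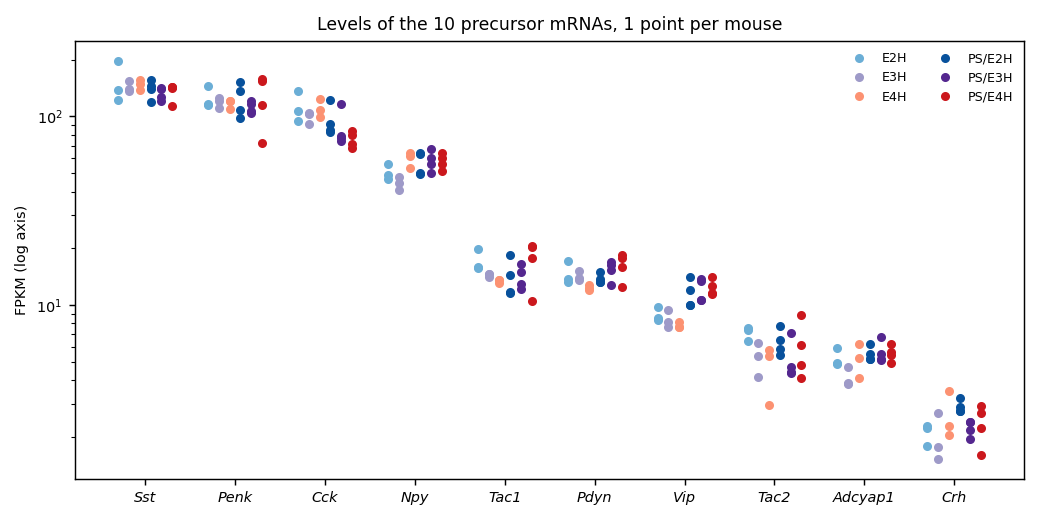
Level of each precursor mRNA in FPKM on a log axis, with 1 point per mouse and colours for the 6 groups; columns within a gene are the groups in the order of the legend. Sst, Penk and Cck lie highest, between 67.9 and 197 FPKM, and Crh lowest, between 1.53 and 3.51 FPKM.

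The tau comparison asked how each precursor differed between PS19 mice and parental mice with the same APOE line. The fit used edgeR's quasi-likelihood test over all genes with Benjamini-Hochberg adjustment, and a gene passed at an adjusted p under 0.05. With the 3 lines pooled and the line as a covariate, 2 of the 10 passed: Vip was higher and Cck was lower. Over all genes tested 22.3% passed (11.9% higher and 10.4% lower), so the share among the peptides was no larger than that of genes at large. No peptide that passed reached a 2-fold difference, which 2.61% of all genes did in the pooled fit and 0.485%, 1.32% and 2.98% in the E2, E3 and E4 lines. Their median log2 fold change was 0.10 against -0.01 over all genes.

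Vip had the clearest difference. The parental values were 31.0, 39.4 and 31.8 CPM (counts scaled to library size by TMM) in E2H, 29.9, 26.8 and 33.3 in E3H and 29.8, 28.0 and 28.0 in E4H. The PS19 values were 38.1, 38.2, 44.3 and 53.4 CPM in PS/E2H, 40.3, 38.3, 47.5 and 50.5 in PS/E3H and 46.6, 42.9, 53.5 and 41.3 in PS/E4H. Every PS/E3H and PS/E4H mouse was above its own parental group (PS19 mice lay above in 10.5% of all genes in the E3 line and in 15% in the E4 line), and 1 E2H mouse, replicate 2, reached into the PS/E2H range. The pooled difference was 1.44-fold, a log2 fold change of 0.53 (SE 0.0769, 95% confidence interval 0.37 to 0.69, edgeR adjusted p = 2.95e-05), and it kept this call without any 1 of the 21 mice (0.50 to 0.58).

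Line by line, Vip was 1.60-fold higher in PS/E4H than in E4H (log2 0.68, SE 0.0940, edgeR adjusted p = 0.00172) and 1.46-fold higher in PS/E3H than in E3H (log2 0.54, SE 0.113, adjusted p = 0.0250). In PS/E2H against E2H the log2 difference was 0.35 (95% confidence interval 0.03 to 0.67), which did not pass (adjusted p = 0.409). Over the 7 fits that left out 1 mouse it was 0.23 to 0.47, largest without E2H replicate 2, and it passed in none. Among all genes 15.6% passed in the E4 comparison, 5.37% in the E3 comparison and 0.752% in the E2 comparison, where no peptide passed by edgeR, DESeq2 or limma and 2 of 10 had an unadjusted p under 0.05 (10.7% of all genes). The E3 call was the least stable. It held without PS/E3H replicate 1 or 2 and was lost without any 1 of the other 5 mice (log2 0.47 to 0.63 over the 7 fits, largest adjusted p 0.114). The 3 tau differences of Vip were not shown to differ from each other, since the E4 minus E2 difference of log2 fold changes was 0.33 (95% confidence interval -0.05 to 0.71, edgeR adjusted p = 0.554).

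Glial markers were higher in PS19 mice as well, and the mice without Xist were 1 of 3 in E4H and 2 of 4 in PS/E4H. With Xist as a covariate the Vip call was kept in the pooled and the E4 fits. The part of glial content in the Vip difference was not tested. GABA neuron markers (15 genes) summed to 247 to 296 FPKM in parental mice and to 275 to 311 in PS19 mice. Of them, Gad1, Gad2, Pvalb and Htr3a passed as higher in the pooled comparison and none passed as lower, with 9 of the 15 above 0 (median log2 0.17 against -0.01 over all genes, of which 11.9% passed as higher). In the E4 line 4 passed as higher (Gad1, Gad2, Pvalb and Sox6) and 2 as lower (Cort and Reln). Among all genes 8.62% passed as higher there and 6.98% as lower. Htr3a, the serotonin receptor that marks the interneuron class to which Vip cells belong, differed by 0.29 on the log2 scale (SE 0.102, edgeR adjusted p = 0.0477). Calb2, calretinin, which is found in part of the Vip cells, did not pass.

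**Figure D2:**
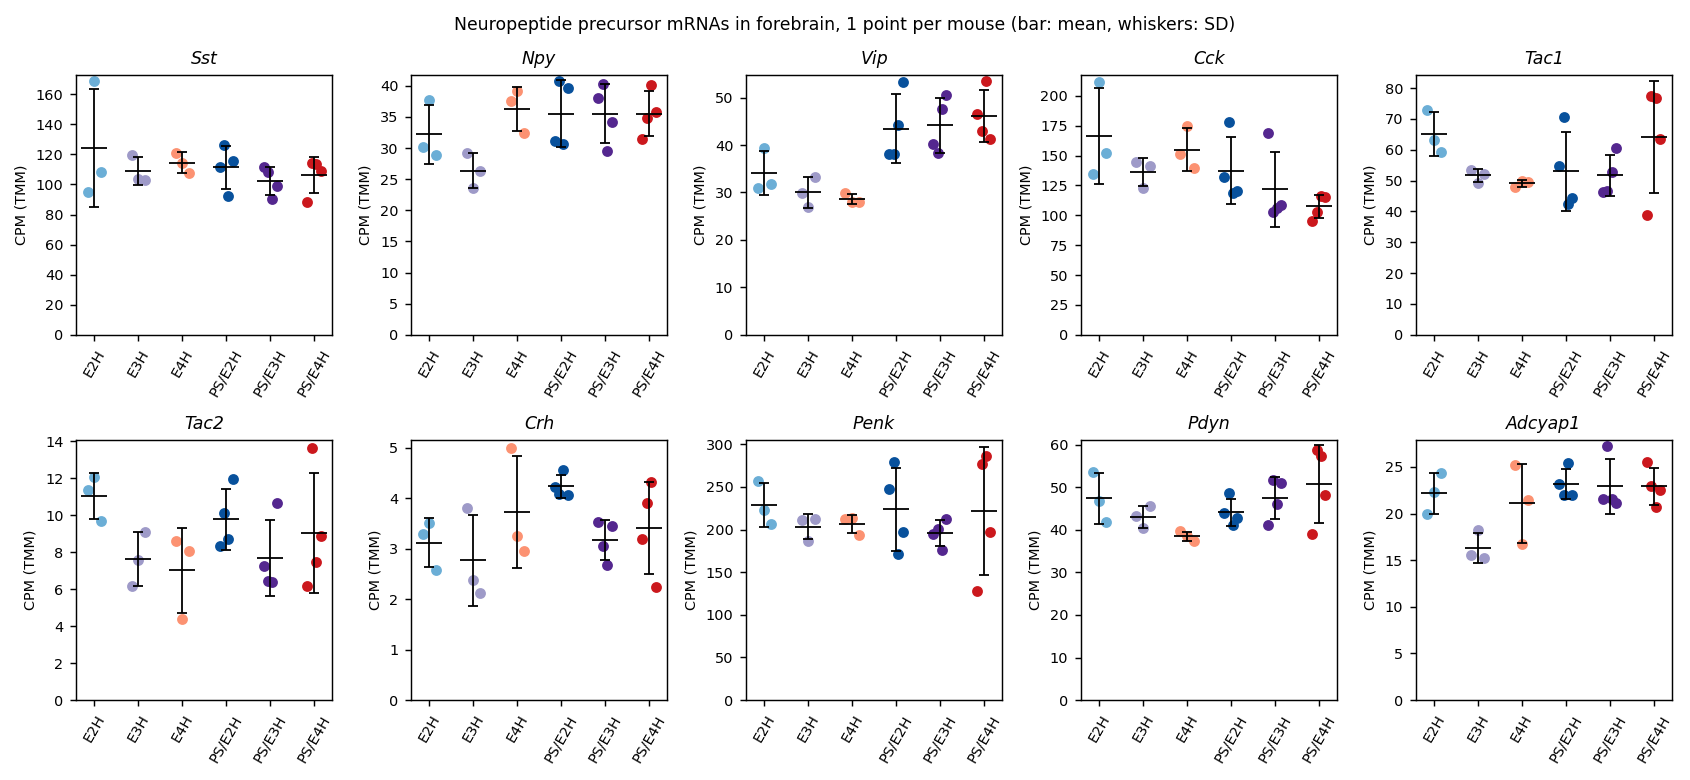
TMM-scaled CPM of the 10 precursor mRNAs, 1 panel per gene from 0, with 1 point per mouse, the group mean as a bar and SD whiskers (n = 3 for E2H, E3H and E4H, n = 4 for the PS groups). The PS/E3H and PS/E4H points lie above their parental groups for Vip, and PS/E4H lies below E4H for Cck.

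Cck moved the other way. Parental mice had 135, 212 and 152 CPM in E2H, 144, 123 and 141 in E3H and 152, 174 and 139 in E4H. PS/E4H mice had 95.5, 103, 116 and 115 CPM, each below the lowest E4H mouse, as in 13.8% of all genes (28.8% did not overlap in either direction). PS/E2H mice had 132, 178, 119 and 120 and PS/E3H mice 169, 103, 106 and 109, so in each of these groups 3 mice lay below the parental range and 1 within or above it.

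In the E4 line Cck was at 0.690 of the parental level (log2 -0.54, SE 0.0934, 95% confidence interval -0.74 to -0.33, edgeR adjusted p = 0.00537), and the call held without any 1 of the 7 mice. In the pooled comparison it was at 0.798 (log2 -0.33, SE 0.10, edgeR adjusted p = 0.0221). This pooled call was lost without E2H replicate 2 (log2 -0.27, adjusted p = 0.0523) and without E4H replicate 2 (log2 -0.28, adjusted p = 0.0598). E4H replicate 2 had the highest excitatory marker sum of the 21 mice (981 FPKM) and the lowest hypothalamic (8.93 FPKM) and thalamic (21.6 FPKM) sums. In the E2 line the log2 difference was -0.28 (95% confidence interval -0.67 to 0.11) and in the E3 line -0.17 (-0.53 to 0.18), and neither passed.

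The E3 value rested on PS/E3H replicate 1, whose 169 CPM of Cck was above the highest E3H mouse. Without that mouse Cck was lower in PS/E3H than in E3H by 0.37 on the log2 scale with an edgeR adjusted p = 0.00888, and the number of all genes that passed went from 1141 to 2584. The same mouse stood apart in markers of other cells. Its 8 excitatory neuron markers summed to 916 FPKM, against 578 to 701 in the other PS/E3H mice and 842 to 943 in E3H. Its microglial sum of 158 FPKM and astrocyte sum of 505 FPKM were the lowest of the 12 PS19 mice.

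Excitatory neuron markers moved in the same direction as Cck. They summed to 752 to 981 FPKM in parental mice and to 578 to 916 in PS19 mice. In the pooled comparison 6 of 8 passed as lower and none as higher, where 10.4% of all genes passed as lower. Their median log2 was -0.29 against -0.01 over all genes. Neurod6, a transcription factor of pyramidal neurons, was lower by 0.69 on the log2 scale (SE 0.106, edgeR adjusted p = 5.3e-05). Tbr1, of deep cortical layers, was lower by 0.35, Camk2a by 0.32 and Cux2, of upper layers, by 0.20. The part of these cells in the Cck difference was not tested.

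**Figure D3:**
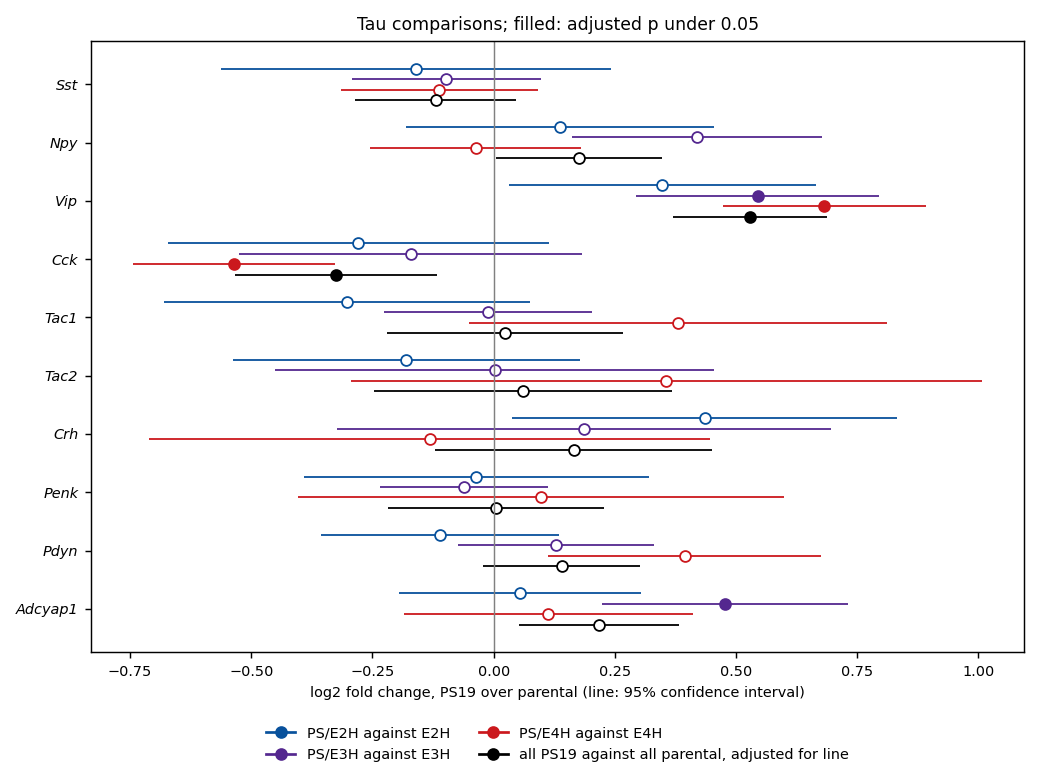
Log2 fold change of each precursor, PS19 over parental, with its 95% confidence interval as a line, for the 3 APOE lines and for the pooled fit. Filled points passed at an adjusted p under 0.05: Vip in the E3, E4 and pooled fits, Cck in the E4 and pooled fits and Adcyap1 in the E3 fit.

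Adcyap1, which encodes the peptide PACAP, and Npy, a marker of interneurons beside Sst, had lower means in E3H than in the 5 other groups. Adcyap1 was at 15.6, 18.2 and 15.2 CPM in E3H and at 21.6, 27.3, 21.6 and 21.2 in PS/E3H. The PS/E3H mice did not overlap with E3H, and the difference was 1.39-fold (log2 0.48, SE 0.115, edgeR adjusted p = 0.0404). The groups did not overlap in either direction in 19.3% of all genes. This call was lost in 6 of 7 fits that left out 1 mouse and held only without PS/E3H replicate 1 (log2 0.38 to 0.56).

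In the other lines Adcyap1 differed little between parental and PS19 mice. E2H had 22.2 ± 2.21 CPM (SD, n = 3) and PS/E2H 23.1 ± 1.62 (n = 4), and E4H had 21.1 ± 4.24 (n = 3) and PS/E4H 22.9 ± 1.97 (n = 4). The pooled log2 difference was 0.22 (95% confidence interval 0.05 to 0.38) and missed the threshold (edgeR adjusted p = 0.0548). It passed by DESeq2 (adjusted p = 0.0446) and in 6 of the 21 edgeR fits that left out 1 mouse (adjusted p from 0.0185 to 0.127 over the 21).

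Npy had the same shape. The E3H mice had 29.1, 23.6 and 26.4 CPM and PS/E3H mice 38.1, 40.3, 29.6 and 34.2, again without overlap. The log2 difference was 0.42 (SE 0.116) with an edgeR adjusted p = 0.0641. The 3 PS19 groups had the same mean of 35.5 CPM (SD 5.42 in PS/E2H, 4.70 in PS/E3H and 3.60 in PS/E4H, n = 4 each), while the parental means were 32.2 ± 4.74 in E2H, 26.4 ± 2.79 in E3H and 36.3 ± 3.53 in E4H (n = 3 each). In the E4 line the log2 difference was -0.04 (95% confidence interval -0.25 to 0.18).

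The striatal precursors Penk, Tac1 and Pdyn did not pass in any tau comparison in the main edgeR fits. Pdyn passed in the E4 line in 3 of 8 alternative settings (adjusted p = 0.0162 by DESeq2). Penk, the enkephalin precursor of indirect-pathway neurons, was at 256, 223 and 207 CPM in E2H, 211, 186 and 212 in E3H and 213, 213 and 194 in E4H. The PS19 values were 248, 279, 171 and 197 in PS/E2H, 195, 201, 176 and 213 in PS/E3H and 127, 277, 287 and 197 in PS/E4H. The pooled log2 difference was 0.00 (95% confidence interval -0.22 to 0.23), and the 4 PS/E4H mice spanned both the lowest and the highest value of the 21.

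Tac1 and Pdyn, the tachykinin and dynorphin precursors of direct-pathway neurons, showed the same mouse at the low end. Tac1 was at 47.8, 49.8 and 49.7 CPM in E4H and at 38.8, 77.4, 76.8 and 63.6 in PS/E4H. Pdyn was at 39.6, 38.5 and 37.4 CPM in E4H and at 39.0, 58.8, 57.3 and 48.1 in PS/E4H. In both genes 3 PS/E4H mice lay above E4H and replicate 1 did not.

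The E4 differences were a log2 of 0.38 for Tac1 (SE 0.194, edgeR adjusted p = 0.221) and of 0.39 for Pdyn (SE 0.127, adjusted p = 0.0616). Without PS/E4H replicate 1 both passed by edgeR, Tac1 at 0.56 (adjusted p = 0.00354) and Pdyn at 0.51 (adjusted p = 0.00593). Each passed in only 1 of the 7 fits that left out 1 mouse, and Tac1 passed in 0 of 8 alternative settings. With all mice 15.6% of all genes passed in the E4 line, and the share without this mouse is not given here. The summed level of 8 striatal markers was 147 FPKM in PS/E4H replicate 1, the lowest of the 21 mice. It was 252, 261 and 204 FPKM in the other 3 PS/E4H mice, against 172 to 202 in E4H. PS/E4H replicate 1 also had the highest microglial (315 FPKM), astrocyte (922 FPKM) and oligodendrocyte (866 FPKM) marker sums of the 21 mice. The part of glial content in these values was not tested. None of the 8 striatal markers passed in the pooled or the E4 comparison. How much striatum each sample held was not measured apart from these genes, and its part in these values was not tested.

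**Figure D4:**
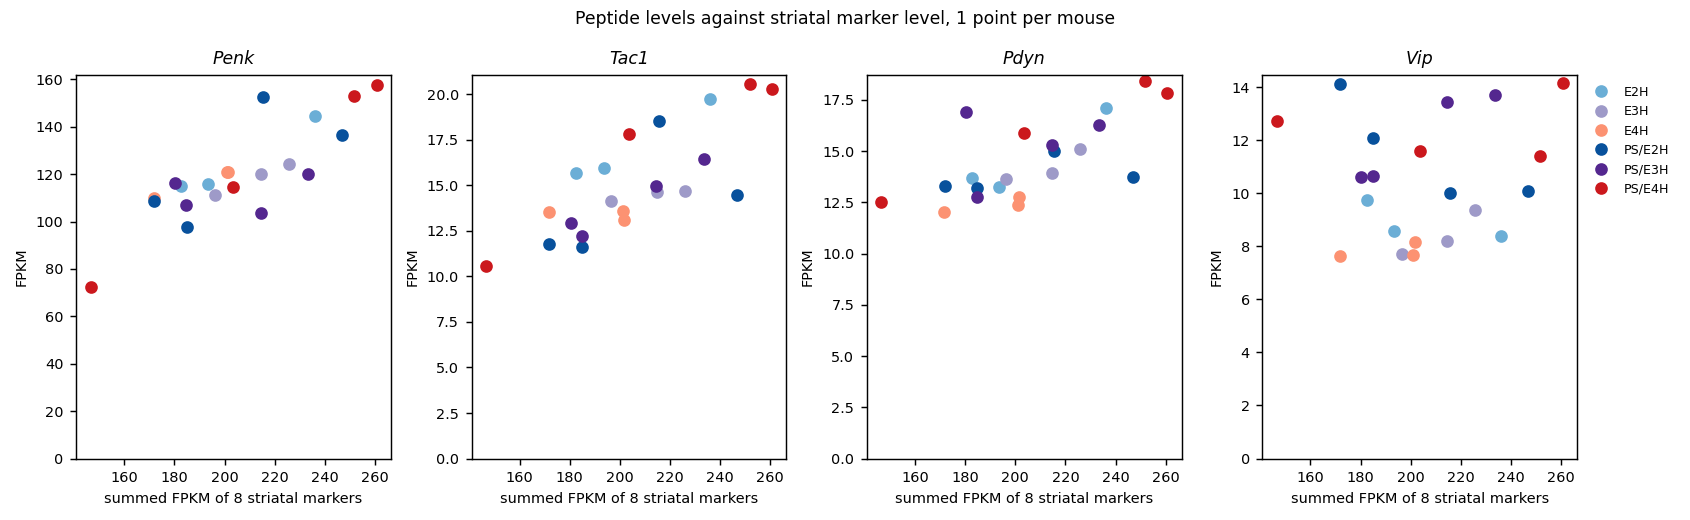
FPKM of Penk, Tac1, Pdyn and, for comparison, Vip against the summed FPKM of 8 striatal markers, 1 point per mouse. PS/E4H replicate 1 lies at 147 FPKM on the horizontal axis with the lowest Penk (72.3 FPKM) and Tac1 (10.6 FPKM), while for Vip the PS19 points lie high along the whole axis.

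Sst, Tac2 and Crh also did not pass in any tau comparison. Sst, the most abundant precursor, was at 95.3, 169 and 108 CPM in E2H, 119, 104 and 103 in E3H, 121, 115 and 107 in E4H, 111, 126, 92.2 and 115 in PS/E2H, 112, 108, 90.4 and 98.8 in PS/E3H and 88.4, 114, 113 and 109 in PS/E4H. Its pooled log2 difference was -0.12 (95% confidence interval -0.29 to 0.05, edgeR adjusted p = 0.321). E2H replicate 2, with the highest Sst, also had the highest Cck. Without this mouse the pooled Sst difference was -0.03, and the Sst difference in the E2 line went from -0.16 to 0.12.

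Tac2, the neurokinin B precursor, varied from 4.38 to 13.6 CPM among the mice and differed by 0.06 on the log2 scale (95% confidence interval -0.25 to 0.37). Crh, the stress peptide precursor, was at 2.57 to 3.50 CPM in the 3 E2H mice and at 4.22, 4.08, 4.56 and 4.06 in PS/E2H, without overlap between the groups, where 11.7% of all genes did not overlap. With 239 to 293 Crh reads per PS/E2H mouse, counting error is not small beside the spread of that group (a coefficient of variation of 5.47%). Its log2 difference there was 0.44 (SE 0.178, edgeR adjusted p = 0.409). In the pooled fit the Crh difference was 0.16 (95% confidence interval -0.12 to 0.45).

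The APOE comparisons asked whether the precursors differed between lines with the same tau status. The authors reported that PS/E3H mice became paralyzed, and so were killed, later than PS/E2H and PS/E4H mice. Where PS19 mice enter a comparison of lines or an interaction, APOE line and age at death therefore cannot be told apart. By edgeR none of the 10 passed in any of the 6 comparisons within a tau status or in the 3 pooled ones. Among all genes 0.178% passed for E2H against E3H, 0.162% for E4H against E3H and 0.216% for E4H against E2H. With tau the shares were 0.113%, 0.0197% and 0.119%, and in the pooled fits 3.66%, 0.129% and 0.734%. At an unadjusted p under 0.05 there were 4, 3 and 3 of the 10 without tau, 1, 0 and 1 with tau, and 1, 0 and 0 in the pooled fits, in the same order of comparisons. The shares of all genes at that p were 14.1%, 6.67% and 12.4% without tau, 11.7%, 6.51% and 12.3% with tau, and 22.2%, 5.83% and 17.0% in the pooled fits. The comparisons share groups, so they are not independent of each other.

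The values with the smallest unadjusted p were found among parental mice. Npy was at 37.5, 39.1 and 32.3 CPM in E4H, above the 3 E3H mice given earlier (12.7% of all genes did not overlap), a log2 difference of 0.46 (SE 0.0974, edgeR adjusted p = 0.210). Tac1 was at 72.9, 63.2 and 59.2 CPM in E2H, above both other parental groups (21.3% of all genes did not overlap between E4H and E2H). Its log2 difference was 0.33 for E2H over E3H (SE 0.0956, adjusted p = 0.239) and -0.40 for E4H over E2H (SE 0.0918, adjusted p = 0.304).

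Adcyap1 was at 19.9, 22.3 and 24.3 CPM in E2H, above each E3H mouse, with a log2 difference of 0.44 (SE 0.118, edgeR adjusted p = 0.230). Tac2 was at 11.4, 12.1 and 9.68 CPM in E2H, 6.16, 7.59 and 9.10 in E3H and 8.61, 4.38 and 8.07 in E4H. Its E2H mice were the highest, with a log2 difference of 0.53 over E3H (SE 0.167, adjusted p = 0.257), and the pooled difference of E2 over E3 mice was 0.43 (95% confidence interval 0.06 to 0.80, adjusted p = 0.159). Between E2H and E3H the groups did not overlap for Tac1, Tac2 and Adcyap1, and 23.3% of all genes did not overlap there. Among parental mice E4H had the low values of Pdyn and Vip. Pdyn was at 37.4 to 39.6 CPM in E4H, 40.4 to 45.6 in E3H and 41.7 to 53.6 in E2H, so E4H overlapped neither group. The log2 differences were -0.16 from E3H (edgeR adjusted p = 0.703) and -0.29 from E2H (adjusted p = 0.366). Vip in E4H lay below each E2H mouse, with a log2 difference of -0.24 (adjusted p = 0.407). The E4H mice of Pdyn and Vip given here are also the reference of the E4 tau comparison. DESeq2 called 1 precursor in each of the 3 parental comparisons: Adcyap1 for E2H over E3H (adjusted p = 0.0442), Npy for E4H over E3H (adjusted p = 0.00291) and Tac1 for E4H over E2H (adjusted p = 0.0247). The shares of all genes that passed, given above, are those of edgeR and cannot be set beside these DESeq2 calls.

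Among PS19 mice Crh in PS/E2H mice exceeded every PS/E3H mouse (3.52, 3.04, 2.68 and 3.45 CPM), and Cck in PS/E4H mice was below every PS/E2H mouse. The groups did not overlap in 5.37% and 6.82% of all genes in these comparisons. The log2 differences were 0.41 for Crh (SE 0.157, edgeR adjusted p = 0.407) and -0.35 for Cck (SE 0.127, adjusted p = 0.349). Sst did not differ beyond its spread between the lines, with pooled log2 differences of 0.15 for E2 over E3 (95% confidence interval -0.05 to 0.35) and 0.06 for E4 over E3 (-0.14 to 0.27).

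Whether the tau difference itself depended on the APOE line was tested with an interaction term for each pair of lines. No precursor passed by edgeR, limma or DESeq2, and 0% of all genes passed by edgeR. At an unadjusted p under 0.05 there were 1 of 10 for E2 against E3, 1 for E4 against E3 and 2 for E4 against E2, where 5.72%, 3.81% and 10.1% of all genes had such a p. These were Adcyap1, whose tau difference was smaller in E2 than in E3 mice by 0.42 on the log2 scale (edgeR adjusted p = 0.847), Npy, smaller in E4 than in E3 mice by 0.46 (adjusted p = 1), and Pdyn and Tac1, larger in E4 than in E2 mice by 0.50 (adjusted p = 0.389) and 0.68 (adjusted p = 0.448). The Cck difference of E4 against E3 had an interval of -0.80 to 0.07.

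The receptors of these peptides were examined as a list of 21 genes that also holds Crhbp, the binding protein of Crh. In the pooled tau comparison 8 passed as lower and 1 as higher, with a median log2 of -0.13 against -0.01 over all genes, of which 10.4% passed as lower. Cckbr, the brain receptor of cholecystokinin, had 35.1, 50.3 and 44.7 CPM in E2H, 46.0, 41.0 and 45.6 in E3H and 33.1, 45.7 and 33.3 in E4H. In PS/E2H it had 29.8, 32.5, 31.1 and 24.1 CPM, in PS/E3H 36.7, 23.5, 22.7 and 25.8 and in PS/E4H 28.3, 20.4, 25.0 and 32.0. Cckbr was lower by 0.59 on the log2 scale (SE 0.0959, edgeR adjusted p = 0.000104), and its highest PS19 value was again PS/E3H replicate 1. Cckbr and its ligand precursor Cck both passed as lower in the pooled comparison.

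Npy2r, the presynaptic receptor of neuropeptide Y, was lower by 0.57 (SE 0.0981, edgeR adjusted p = 0.000199). It had 14.5 to 18.4 CPM in parental mice and 8.35 to 12.3 in 11 PS19 mice, while PS/E4H replicate 3 had 18.2. It also passed on its own in the E2 line (log2 -0.70) and in the E3 line (log2 -0.64). The other Y receptors, Npy1r and Npy5r, were each lower by 0.37 (adjusted p = 0.00409 and 0.00224), while Npy itself did not pass in the pooled fit (log2 0.18, adjusted p = 0.137).

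Vipr1, a receptor of VIP that also binds PACAP, was lower by 0.46 (SE 0.0875, edgeR adjusted p = 0.000533), opposite in direction to Vip. E4H mice had 21.9, 24.8 and 15.5 CPM of Vipr1 and PS/E4H mice 16.6, 11.9, 11.1 and 13.8. Vipr2, the other VIP receptor, did not pass (log2 0.10, 95% confidence interval -0.22 to 0.42). Adcyap1r1, the PACAP receptor, was the 1 receptor that passed as higher, by 0.11 (SE 0.0390, adjusted p = 0.0415).

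The somatostatin receptors Sstr2 and Sstr3 were lower by 0.36 and 0.34 (edgeR adjusted p = 0.00327 and 0.0138) although Sst did not pass, and Sstr2 overlaps Slc39a11 in the annotation. Crhr1, a receptor of the stress peptide, was lower by 0.30 (adjusted p = 0.00636). In the E4 line it had 19.3, 16.5 and 18.2 CPM in E4H and 12.4, 12.3, 12.9 and 12.6 in PS/E4H. These groups did not overlap, as in 28.8% of all genes. The opioid receptors Oprm1, Oprd1 and Oprk1 and the tachykinin receptor Tacr1 did not pass. Oprm1 was close to the detection limit, with means of 0.0629 FPKM in E3H and 0.0352 FPKM in PS/E2H (14 to 26 reads per PS/E2H mouse). It also overlaps Ipcef1 and Gm10945 in the annotation, so its result says little. In single lines 1 receptor passed as lower in E2 mice (0.0825% of all genes passed as lower) and 2 in E3 mice (2.02%). In E4 mice 4 passed as lower (Sstr3, Sstr4, Vipr1 and Crhr1, against 6.98%) and Tacr3 passed as higher (against 8.62%).

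A list of 13 genes covered the processing and packing of peptide precursors. In the pooled comparison 4 passed as higher and none as lower, and 8 of the 13 were above 0, with a median log2 of 0.11 against -0.01 over all genes, of which 11.9% passed as higher. In the E4 line 4 also passed as higher, where 8.62% of all genes did. There 6 of the 13 were above 0 and the median was -0.01. Scg3, a granin that helps to sort cargo into dense-core vesicles, was higher by 0.32 (SE 0.0387, edgeR adjusted p = 3e-06) and Cpe, carboxypeptidase E, which trims the cut peptides, by 0.33 (SE 0.0449, adjusted p = 1.4e-05). Scg2, secretogranin II, had 350, 304 and 304 CPM in E2H, 256, 304 and 284 in E3H and 302, 234 and 294 in E4H, and it had 388, 363, 374 and 430 in PS/E2H, 318, 420, 350 and 367 in PS/E3H and 342, 443, 414 and 367 in PS/E4H.

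The Scg2 difference was 0.38 (SE 0.0632, edgeR adjusted p = 0.000125), and in each line the PS19 mice lay above their parental group. PS19 mice lay above in 6.67% of all genes in the E2 line, 10.5% in the E3 line and 15% in the E4 line. Scg5, a chaperone of the convertase Pcsk2, was higher by 0.32 (adjusted p = 0.0483). The convertases did not pass, with log2 differences of -0.16 for Pcsk1 and -0.08 for Pcsk2. Vgf, the precursor of several secreted peptides, differed by 0.11 (95% confidence interval -0.11 to 0.33). Some of these genes, such as Cpe and Scg3, are also made by astrocytes, whose 6 markers passed as higher in the pooled comparison, and the part of astrocytes in these differences was not tested.

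**Figure D5:**
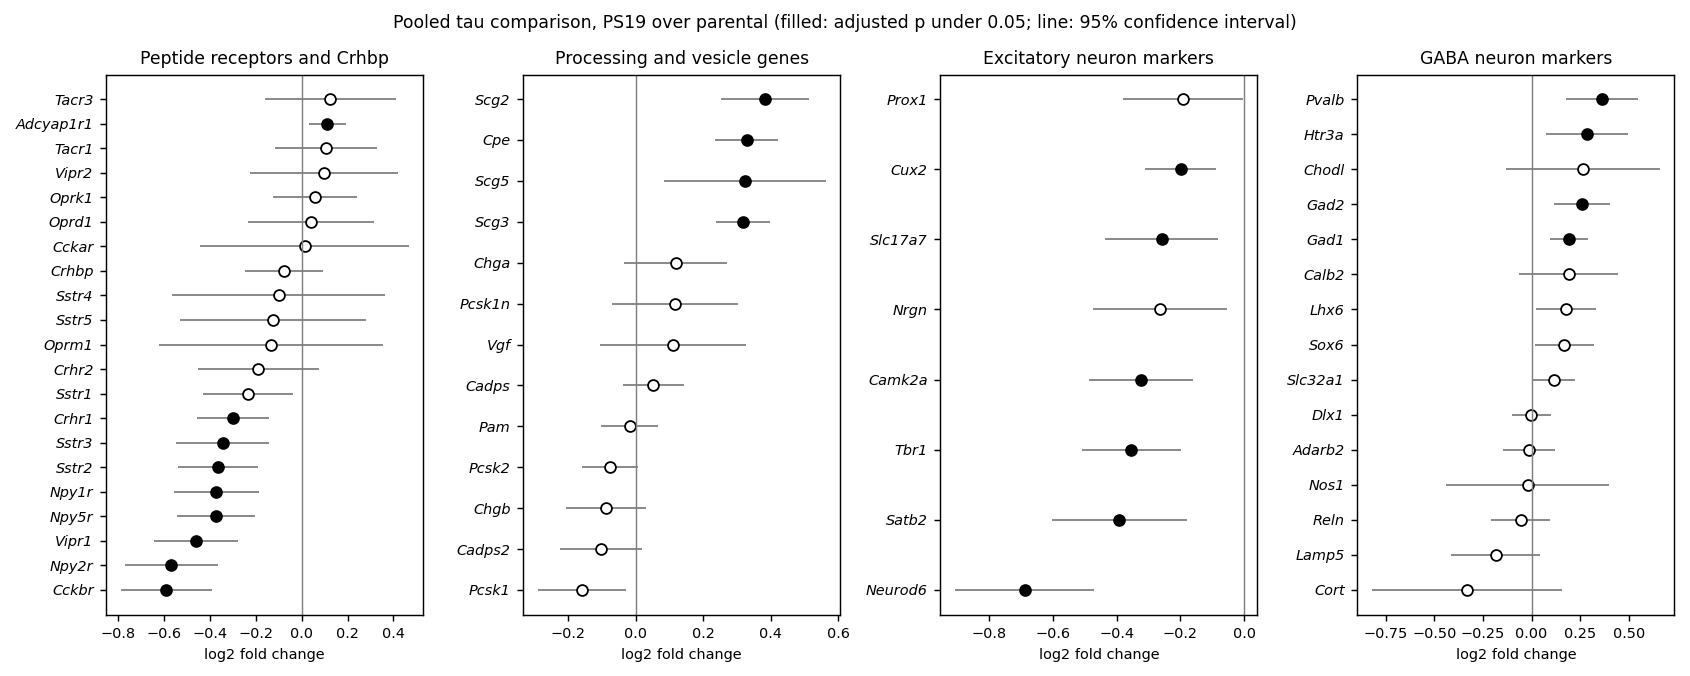
Pooled tau log2 fold change with its 95% confidence interval for peptide receptors with Crhbp, processing and vesicle genes, excitatory neuron markers and GABA neuron markers. Filled points passed at an adjusted p under 0.05: 8 receptors, led by Cckbr (-0.59), lie below 0, and 4 processing genes, led by Scg2 (0.38), lie above.

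Further lists were read for cells that could carry or replace these peptides. Among hypothalamic peptides and among thalamic markers none passed in the pooled tau comparison by edgeR (0 of 8 and 0 of 5, with 1 of each at an unadjusted p under 0.05, where 33.4% of all genes had such a p). Among 10 activity-regulated genes Egr1 passed as lower (log2 -0.66, SE 0.175, edgeR adjusted p = 0.00891), as did 10.4% of all genes. Of glial lists, 7 of 8 microglial, 6 of 6 astrocyte and 4 of 6 oligodendrocyte markers passed as higher, where 11.9% of all genes did. The authors had already reported Trem2, C1qa, Itgax and Gfap, which the microglial and astrocyte lists hold, as higher in PS19 mice. In PS/E4H mice they also reported higher astrocyte, microglial and oligodendrocyte genes and a slight decrease of neuronal genes. In PS/E2H mice they found only the microglial profile raised among the cell types. Of the endothelial markers 1 of 5 passed as higher (Pecam1). In the pituitary and choroid plexus list, 5 of 6 genes were tested and Prl, the pituitary hormone prolactin, passed as lower with 0 to 423 reads per mouse.

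Mice of a group also differed from each other in a shared way. After subtracting group means, log2 CPM over the 21 mice ran together for Tac1 and Penk (r = 0.92), Penk and Pdyn (r = 0.87) and Tac1 and Pdyn (r = 0.84). The gene most like Penk in this sense among 15773 was the striatal marker Ppp1r1b, DARPP-32, at r = 0.93. Ppp1r1b was also among the 3 most like Tac1 (r = 0.90) and Pdyn (r = 0.81).

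Sst and Npy formed a second pair (r = 0.79), and Cck ran with Sst at 0.72 and with Npy at 0.61. The genes most like Cck were Sept5, Nrgn and Basp1 (r = 0.93 each), of which Nrgn, neurogranin, is a marker of excitatory neurons. Most like Sst were Yjefn3, Ndufc2 and Ptms (r = 0.93 each), and most like Npy were Agfg2, Vgf and Dcakd (r = 0.85 each). For Vip the top genes were Zrsr1, Ms4a6c and Ak3 (r = 0.85, 0.85 and 0.84), for Adcyap1 Arl4c, Vwa5b1 and Arhgef16 (r = 0.82, 0.81 and 0.81), for Tac2 Rnf139, Gpr1 and 4930579G24Rik (r = 0.86, 0.82 and 0.81) and for Crh Krt2, Rn7sk and Rn7s2 (r = 0.84, 0.80 and 0.77). The points of each correlation share libraries, depth and dissection, and the correlations are given as a description.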

How the data were processed

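Forebrain RNA of 21 mice was sequenced as poly(A)-selected, stranded paired-end libraries. Per the labels and methods, the authors trimmed reads with Cutadapt, aligned them with HISAT2 to GRCm38.p5 with Ensembl annotation and assembled and quantified transcripts with StringTie. Tool versions, and how gene counts were taken from StringTie, are not given in the sources used here. The authors deposited raw gene counts and FPKM values (fragments scaled to transcript length and library size). Columns of the authors' own comparisons were not used. Of 55401 IDs in the count table, 55141 were paired with a symbol.

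Counts were fitted here with edgeR 4.0.16 in R 4.3.3 (TMM, filterByExpr with a minimum count of 10, glmQLFit and glmQLFTest), in pairs of groups, in additive fits over 21 mice and with interaction terms. P-values were adjusted over all genes tested. A standard error is the log2 fold change over the square root of F. CPM use TMM-scaled library sizes, and levels were compared between genes only as FPKM. The 10 precursors and the 13 other gene lists were chosen with earlier results of these data known. Named from the other lists were up to 4 genes per comparison with the smallest p among those that passed, and genes given as a check. Further list genes described by role were named after their values were seen. For likeness, Pearson's r was computed on log2 CPM (prior count of 2, mean CPM at least 1). Alternatives were other size factors, DESeq2 1.42.0, no filter, limma 3.58.1 on log2(FPKM + 1) and log2(FPKM + 0.1), each mouse left out, a replicate block, 1 fit of 6 groups and Xist as a covariate. Mice are separate animals, and libraries held 59265459 counts or more.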

Additional observations from a re-analysis of the deposited data

Results flagged for a closer look

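Of 30 groups of 4 mice (10 precursors in 3 PS19 groups), 2 held a mouse whose gap to the next was larger than Dixon's 95% limit, and chance would give about 1 in 20. In PS/E3H the highest Cck value was 169 CPM in replicate 1, against 103 to 109 in the other 3 mice. In PS/E3H the highest Adcyap1 value was 27.3 CPM in replicate 2, against 21.2 to 21.6 in the other 3.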

How the results depend on the processing

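Of the counts of precursors that passed in a comparison, 282 alternative values were unchanged or within 1.5 times and 15 were not. Most of these values belong to comparisons in which no precursor passed in the main fit, where 0 again counted as unchanged. A change from 2 to 3 counted as within 1.5 times. The total therefore does not measure how stable the calls were. In the E3 tau comparison, where 2 passed, 1 passed with no filter on low counts, 0 with limma on log2(FPKM + 1), 1 with log2(FPKM + 0.1), and 0 to 3 when a mouse was left out. In the E4 tau comparison, where 2 passed, leaving out a mouse gave 2 to 4. In the pooled tau comparison, where 2 passed, leaving out a mouse gave 1 to 3, and the replicate block gave 1, with Cck at -0.30 (adjusted p = 0.0726). In each of the 3 parental APOE comparisons, where 0 passed, DESeq2 gave 1. The shares of all genes given in the text are those of edgeR, and those of DESeq2 are not given here. The 3 precursors with pooled tau values near 0 that changed sign were Tac1 under limma (-0.0052 and -0.0070) and between -0.018 and 0.074 with a mouse left out, Tac2 under the block (-0.047) and between -0.028 and 0.106, and Penk under DESeq2 (-0.0026) and limma (-0.031 and -0.032) and between -0.041 and 0.059. The cause was not tested. DESeq2 also called Npy in the E3 comparison (adjusted p = 0.00893) and Adcyap1 in the pooled tau comparison (0.0446), and Pdyn in the E4 comparison passed by DESeq2 (0.0162), in 1 fit of 6 groups (0.0314) and with Xist as a covariate (0.0299). Replicate numbers did not pair the mice: over 48 pairs with the same number the correlation of deviations was -0.120 to 0.0955, and 18 of 96 mouse and group matches were best with their own number. The cause of the changed count under the block was not tested. Precision was limited by the number of mice.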

Other observations

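Cort, cortistatin, the closest relative of somatostatin, was lower in PS/E4H than in E4H mice. It was at 2.92 to 3.60 CPM in the 3 E4H mice and at 1.15 to 1.87 in the 4 PS/E4H mice, a log2 fold change of -1.13 (SE 0.215, edgeR adjusted p = 0.00766). In the other lines Cort did not pass, with log2 differences of 0.45 in E2 mice and -0.26 in E3 mice, and in the pooled fit it was at -0.33 (95% confidence interval -0.82 to 0.15). The gene had 53 to 271 reads per mouse. E4H mice had the highest Cort values among the parental groups.

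Pcsk1n, an inhibitor of the convertase Pcsk1, and Pvalb, the marker of fast-spiking interneurons, were the 2 genes of the processing and GABA neuron lists that passed in the pooled comparison of E2 with E3 mice, both higher in E2 mice, by 0.42 (SE 0.109, edgeR adjusted p = 0.0385) and 0.49 (SE 0.107, adjusted p = 0.0218) on the log2 scale. Pvalb was at 80.6, 93.4 and 63.3 CPM in E2H and at 43.0, 47.4 and 44.6 in E3H. With tau the groups overlapped, at 68.3 to 89.2 CPM in PS/E2H and 59.1 to 76.3 in PS/E3H.

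The 8 hypothalamic peptides summed to 8.93 FPKM in E4H replicate 2 and to between 51.1 and 166 FPKM in the other 20 mice. The same mouse had the lowest Tac2 value, 4.38 CPM.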
